A study of Mus with 6 samples.

Results

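The 10 transcripts described here encode the 5 subunits of NF-κB (Nfkb1, Nfkb2, Rel, Rela and Relb) and 5 IκB proteins (Nfkbia, Nfkbib, Nfkbid, Nfkbie and Nfkbiz). They were picked by symbol, not by a cutoff on their values, although earlier results of these data were known. All 10 were found among the 10995 protein-coding genes of the table. RNA came from wild-type mouse spleen CD4+ T cells, which were isolated as naive cells and activated for 3 days with anti-CD3 (5 μg/mL), anti-CD28 (2 μg/mL) and IL-2 (100 U/mL). During activation 3 samples received an antibody that neutralizes VEGF-B and 3 received normal goat IgG (1 μg/mL of either), and every sample gave 1 RNA-Seq library. As all 6 libraries come from activated cells, the comparison asks how neutralizing VEGF-B altered these transcripts within activated cells, and resting cells were not measured. Nothing in the labels says whether the 3 samples of a group came from separate mice, so the p values measure the spread between these samples, which may be technical.

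NF-κB is a dimer of Rel-family proteins. In a resting T cell it is held in the cytoplasm by IκB proteins, whose ankyrin repeats cover its nuclear localization signal. T cell receptor and CD28 signals activate the IκB kinase, IκBα (Nfkbia) is degraded, and the dimers enter the nucleus, where they switch on cytokine and survival genes together with several of their own genes and inhibitors. Rela, Rel and Relb carry a transactivation domain. Nfkb1 and Nfkb2 encode long precursors that act as inhibitors until processed to their DNA-binding forms. Nfkbid (IκBNS) and Nfkbiz (IκBζ) are nuclear IκB proteins, which bind NF-κB at its target genes instead of retaining it outside the nucleus.

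The values are FPKM, the authors' expression level per transcript length and library size. They carry no read number, so the counting precision is unknown. The FPKM of a library summed to between 260058 and 276622, and 59 to 91 genes were at 0 under anti–VEGF-B against 36 or 37 under IgG. The median FPKM of the genes tested was 5.43 to 5.67 under anti–VEGF-B and 6.20 to 7.08 under IgG. Neither measure overlapped between the groups. Calls after centring the medians are given beside the main ones, and the part of the genes at 0 in the results was not tested. T cell markers (Cd3e, Cd4, Lck and 7 others) were all present, with summed levels of 618 to 670 FPKM under anti–VEGF-B and 624 to 722 under IgG. Single markers were not all alike. Thy1 (14.5 to 17.5 FPKM under anti–VEGF-B, 24.5 to 34.7 under IgG), Cd3e (9.6 to 12.9, 14.2 to 18.6) and Cd5 (56.3 to 69.9, 71.9 to 93.4) were lower without overlap. So were 38.5% of all genes tested, and the remaining T cell markers overlapped. Of the 6 B cell markers, 1 was listed (Cd79b, at most 1.34 FPKM), of the 4 NK cell markers 1 (Klrk1, at most 0.0943), and of the 5 erythroid or platelet markers none. The 2 CD8 T cell markers summed to 2.29 to 4.69 FPKM over the 6 libraries, with Cd8a at 0 in 1 of them, and the 3 of 8 myeloid markers listed to 3.95 to 5.11 FPKM under anti–VEGF-B and 4.60 to 19.8 under IgG. The top value was that of IgG replicate 3, where Lyz2 was at 16.4 FPKM, against 3.26 to 4.19 in the other libraries. Csf1r (1.57 against 0.288 to 0.38) and Cd14 (1.8 against 0.397 to 0.777) were also highest in IgG replicate 3. Adgre1, Itgam, Itgax, Fcgr1 and Mpo were not listed. Without this library the 10 log2 fold changes kept their direction, and of the 5 calls only that of Nfkb2 was lost.

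Changes were tested as log2(FPKM + 1) with limma over 8816 genes whose mean reached 1 FPKM, with Benjamini-Hochberg adjustment over all of them. On this scale the change of transcripts with few FPKM is understated. The median gene was at -0.15 and 71.2% of genes were lower under anti–VEGF-B, so a small fall is the usual behavior of a gene in these libraries. All 10 transcripts passed the filter. Of the 10, 5 passed an adjusted p of 0.05, 4 of them lower (Nfkbid, Nfkbie, Nfkb2 and Relb) and 1 higher (Nfkbiz). Across all genes 28.7% passed, 23.8% lower and 4.87% higher. The median log2 fold change of the 10 was -0.23. The groups did not overlap for 7 transcripts that were lower, against 38.5% of all genes, and for 1 that was higher, against 10.5%. Counted in either direction, the groups of 49% of all genes did not overlap. Scaling the libraries differently changed the balance of calls. Quantile normalization put the median gene at 0.0077 and median centring at 0.038. After quantile normalization 10.4% of all genes were lower and 9.98% higher, and among the 10 transcripts Nfkbid, Nfkbie and Nfkb2 were lower and Nfkbiz higher. After median centring 10.4% of genes were lower and 16.1% higher, and the calls left were Nfkbid and Nfkbie (lower) and Nfkbiz (higher). These 3 IκB transcripts were called under each of the 4 other scalings run (quantile, median, Actb and cyclic loess). Single libraries mattered too. The transcripts called lower by limma went from 4 to 2 when anti–VEGF-B replicate 1 or 3 or IgG replicate 2 was left out. Over all genes the lower calls then went from 2099 to 1389, 702 and 1073, respectively. Nfkbiz was not called without anti–VEGF-B replicate 2 or 3 or IgG replicate 2. The higher calls over all genes then went from 429 to 286, 163 and 257, respectively.

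**Figure D1:**
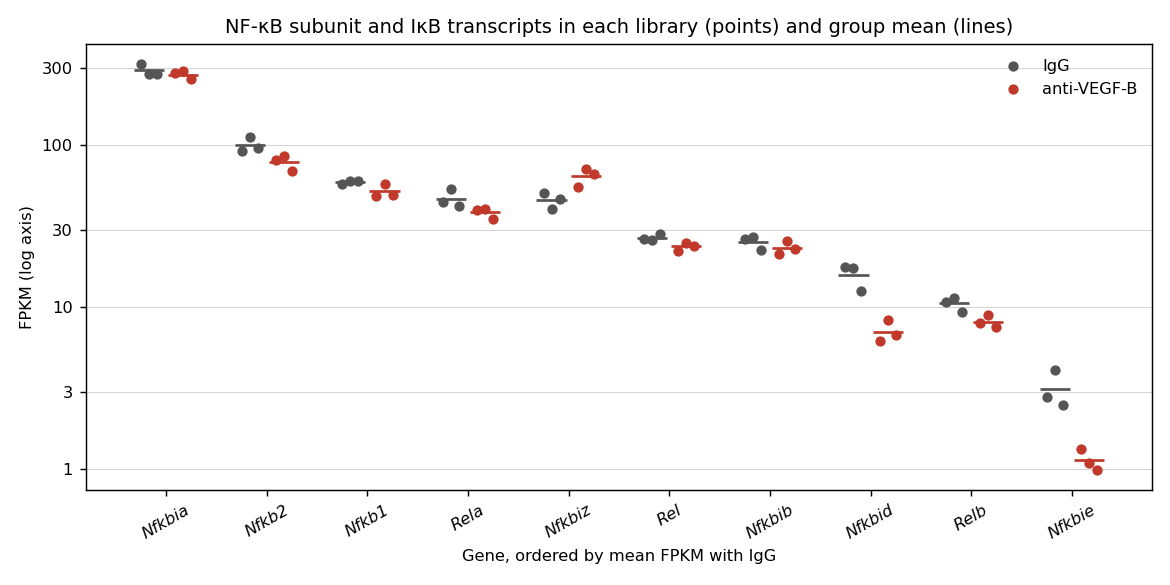
FPKM of each of the 10 transcripts (log axis) in the 3 IgG libraries (gray) and the 3 anti–VEGF-B libraries (red), replicates 1 to 3 from left to right, with lines at the group means. Nfkbid, Nfkbie and the 5 subunits lay lower, and Nfkbiz higher, in all anti–VEGF-B libraries than in any of the IgG libraries. Nfkbia, the most abundant of the 10 in both groups, and Nfkbib overlapped. The groups of 49% of all genes tested did not overlap.

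With IgG the order of levels, per transcript length, ran from Nfkbia (mean 289.5 FPKM) through Nfkb2 (99.8), Nfkb1 (59.3), Rela (46.8), Nfkbiz (45.9), Rel (26.9), Nfkbib (25.3), Nfkbid (15.9) and Relb (10.6) to Nfkbie (3.11). Within the IgG libraries the ranges of neighbors overlapped only for Rela and Nfkbiz and for Rel and Nfkbib. Nfkbia was expressed more highly than 98.2% of the genes tested and Nfkbie than 19.2%. With anti–VEGF-B the order differed in 2 places. Nfkbiz (64.4 FPKM) stood above Nfkb1 (51.9) and Rela (38.6), although its range overlapped those of both Nfkb2 and Nfkb1. Nfkbid (7.07) stood below Relb (8.15), with overlapping ranges. The libraries of a group were not interchangeable. Anti–VEGF-B replicate 2 had the highest value of its group for 9 of the 10 transcripts, all but Nfkbie. IgG replicate 2 had the highest value of its group for Nfkb2, Rela, Relb, Nfkbib and Nfkbie and the lowest for Rel, Nfkbia and Nfkbiz.

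Nfkbid, the gene of the nuclear inhibitor IκBNS, showed the largest log2 fold change of the 10 on the scale used. It lies on chromosome 7 (30421732 to 30428746, GRCm38, forward strand). Its level was 17.6, 17.3 and 12.7 FPKM in IgG replicates 1, 2 and 3 and 6.18, 8.29 and 6.73 in anti–VEGF-B replicates 1, 2 and 3. Every anti–VEGF-B library thus lay under every IgG library, and the highest of them was well short of the lowest IgG value. The mean fell from 15.9 ± 2.77 to 7.07 ± 1.10 FPKM (SD, n = 3 each), to 0.445 of the IgG level. The log2 fold change was -1.06 (SE 0.142, limma adjusted p = 0.00488), and 0.59% of all genes had a lower one. Relative to the median gene it was -0.91. Among the 17 alternatives run for it, the one without moderation of the variance ended the call (limma adjusted p = 0.0708, the top of a range from 0.003 over the alternatives). Without IgG replicate 3, the library with higher myeloid markers, the log2 fold change was -1.20.

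The 3 genes whose profile over the 6 libraries was most like that of Nfkbid, by the root-mean-square difference of centered log2 values, were Pip5k1c (0.124), Acsl5 (0.155) and Zfp955b (0.159), out of 8806 genes compared. Pip5k1c, which encodes a phosphatidylinositol phosphate kinase, had 7.48 FPKM under IgG and 3.48 under anti–VEGF-B. Acsl5, an acyl-CoA synthetase gene, had 5.90 and 2.59, and Zfp955b, a zinc finger gene, 3.29 and 1.31.

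Nfkbie encodes IκBε, a cytoplasmic inhibitor that is itself induced by NF-κB. The gene is on chromosome 17 (45555716 to 45563169, forward strand), and its transcript was the least abundant of the 10. It was at 2.77, 4.08 and 2.48 FPKM in the IgG libraries and at 1.33, 1.09 and 0.994 in the anti–VEGF-B libraries. The groups were apart, under IgG replicate 2 well above the other IgG values. From 3.11 ± 0.851 the mean fell to 1.14 ± 0.172 FPKM, to 0.366 of the IgG level, which was the largest relative fall in FPKM. On the log2 scale the fall was -0.93 (SE 0.149, limma adjusted p = 0.00657). Because the level is near the pseudocount, the size of the change depends on the latter, and with a pseudocount of 0.1 it was -1.35. Without IgG replicate 2 the log2 fold change was -0.76 (limma adjusted p = 0.00985), and without IgG replicate 3 it was -1.04. As for Nfkbid, the call was lost without moderation (limma adjusted p = 0.0741, the top of a range from 0.00314 over the alternatives).

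Nfkbiz moved the other way. It encodes IκBζ, a nuclear protein that acts as a coactivator at a subset of NF-κB targets and takes part in Th17 responses, and it lies on chromosome 16 (55811375 to 55838899, reverse strand). The IgG libraries were at 51.0, 40.2 and 46.4 FPKM and the anti–VEGF-B libraries at 55.3, 71.1 and 66.8. All anti–VEGF-B values exceeded all IgG values, but the gap between IgG replicate 1 and anti–VEGF-B replicate 1 was small. The mean rose from 45.9 ± 5.45 to 64.4 ± 8.13 FPKM, by 40.4% (log2 fold change 0.48, SE 0.115, limma adjusted p = 0.0176), and 98.3% of all genes had a lower log2 fold change. The rise rested partly on single libraries. Without anti–VEGF-B replicate 2 it was 0.41 (limma adjusted p = 0.0501), without anti–VEGF-B replicate 3 it was 0.45 (0.0611) and without IgG replicate 2 it was 0.39 (0.0534). Without IgG replicate 3 it was 0.49 (limma adjusted p = 0.0370). The fit without moderation gave 0.110, and over all alternatives the adjusted p from limma ran from 0.0113 to 0.110.

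The ratio of both nuclear IκB transcripts within a library is not altered by multiplying all values of that library by 1 factor. There were 2.90, 2.32 and 3.67 Nfkbiz FPKM per Nfkbid FPKM in the IgG libraries and 8.96, 8.57 and 9.93 in the anti–VEGF-B libraries. A fall of Nfkbid alone would raise this ratio too, so it does not show that the transcripts moved in opposite directions. It was chosen after its values were seen and was not tested.

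The other cytoplasmic IκB transcripts did not pass the test. Nfkbia encodes IκBα, the main inhibitor degraded on activation, and lies on chromosome 12 (55489410 to 55492647). It was at 316, 276 and 277 FPKM under IgG and at 278, 286 and 255 under anti–VEGF-B, so the groups overlapped. The log2 fold change was -0.084 (95% interval -0.272 to 0.105, limma adjusted p = 0.464), and after median centring it was 0.15. Nfkbib encodes IκBβ, another cytoplasmic inhibitor, and lies on chromosome 7 (28758251 to 28767512). It had 26.4, 27.1 and 22.5 FPKM under IgG and 21.4, 25.5 and 23.0 under anti–VEGF-B, again with overlap. Its log2 fold change was -0.11 (95% interval -0.335 to 0.106, limma adjusted p = 0.393), and 0.11 after median centring. The locus of Nfkbib overlaps Sirt2 on the opposite strand, and whether the counting used the strand is not stated. These intervals, which are not adjusted for the number of genes, leave room for falls to about the size of those of the subunits.

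**Figure D2:**
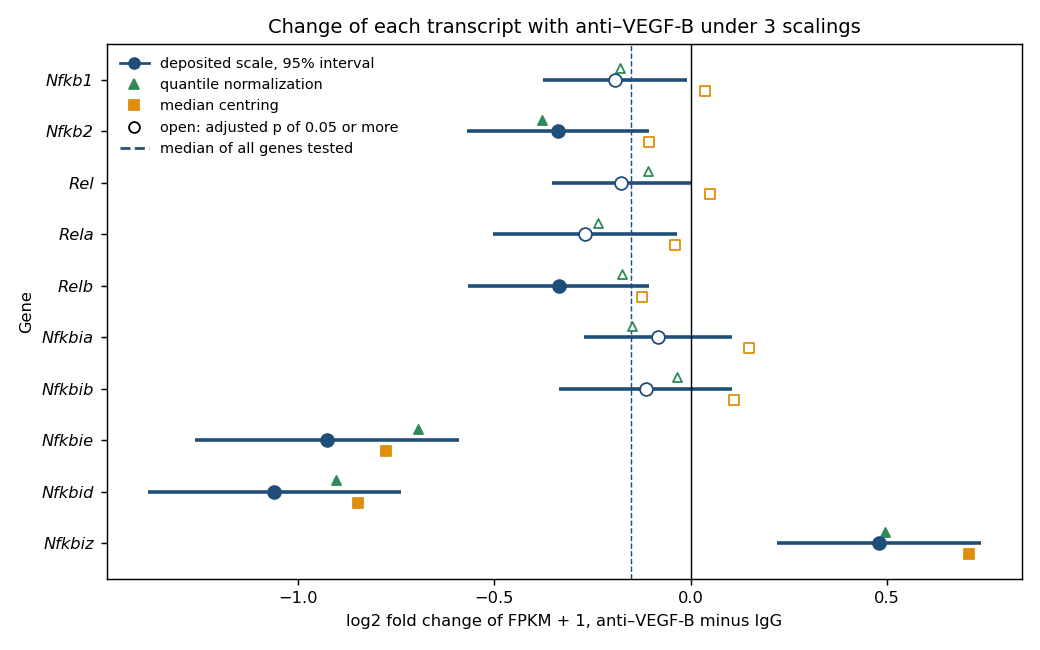
Log2 fold change of FPKM + 1 (anti–VEGF-B minus IgG) for the 10 transcripts on the deposited scale with its 95% interval (circles and lines), after quantile normalization (triangles) and after median centring (squares), filled where the adjusted p was under 0.05. Nfkbie, Nfkbid and Nfkbiz are filled on all 3 scales, while Nfkb1, Rel, Nfkbia and Nfkbib cross 0 after median centring.

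In the summed IκB FPKM of a library, Nfkbia made up 76.2% ± 0.536 under IgG and 74.0% ± 2.38 under anti–VEGF-B (SD, n = 3 each). The share of Nfkbiz was 12.1% ± 0.946 under IgG and 17.5% ± 1.93 under anti–VEGF-B. Nfkbid had a share of 4.17% ± 0.630 and 1.91% ± 0.206, and Nfkbie of 0.825% ± 0.255 and 0.309% ± 0.0498. The groups did not overlap for these last 3 shares, whereas they did for Nfkbia and Nfkbib. The total itself was 379.7 ± 29.6 FPKM under IgG and 368.8 ± 20.4 under anti–VEGF-B, a difference smaller than the SD of either group.

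**Figure D3:**
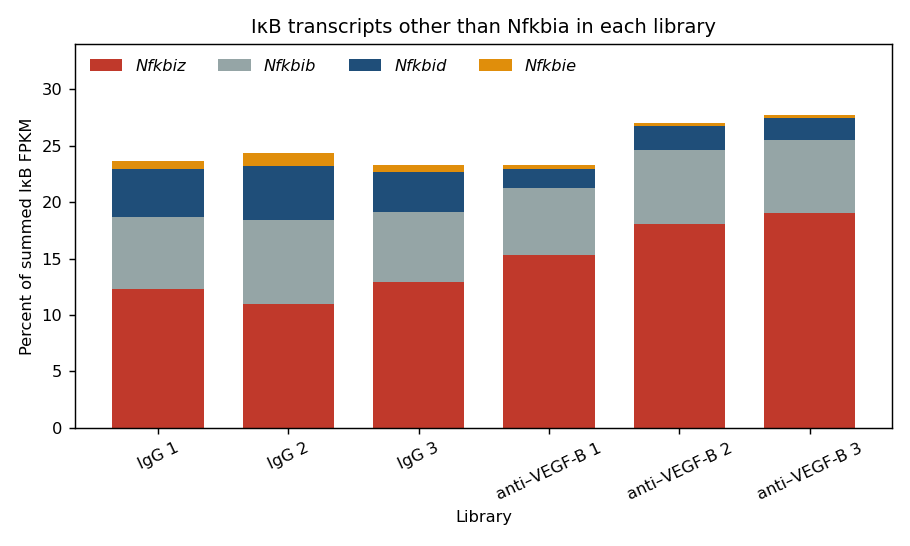
Share of the summed IκB FPKM taken by Nfkbiz, Nfkbib, Nfkbid and Nfkbie in each library, in percent. The rest up to the full sum is Nfkbia. Nfkbiz had 11.0% to 12.9% in the IgG libraries and 15.3% to 19.0% in the anti–VEGF-B libraries.

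All 5 subunit transcripts were lower without overlap between the groups, each anti–VEGF-B value lying under all IgG values (38.5% of all genes were lower without overlap), by 11.9% to 22.8% of the mean FPKM. After median centring, however, Nfkb1 and Rel had log2 fold changes of 0.037 and 0.048, with the median gene at 0.038. Of the 5, Nfkb2 and Relb passed the test. For each of the 8 transcripts whose groups did not overlap, Nfkbid, Nfkbie and Nfkbiz among them, an exact two-sided permutation test gave p = 0.1, the smallest that 3 against 3 allow.

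Nfkb2 and Relb encode the precursor and partner of the dimer that serves the non-canonical pathway. Nfkb2 (chromosome 19, 46304737 to 46312090) was at 91.8, 112 and 95.7 FPKM under IgG and at 81.6, 85.3 and 69.6 under anti–VEGF-B (log2 fold change -0.34, SE 0.103, limma adjusted p = 0.0382). Relb (chromosome 7, 19606217 to 19629438) was at 10.8, 11.5 and 9.38 FPKM under IgG and at 7.94, 8.90 and 7.60 under anti–VEGF-B, also -0.34 (SE 0.102, adjusted p = 0.0376). Both calls were near the threshold. Nfkb2 lost its call without anti–VEGF-B replicate 1 (-0.36, limma adjusted p = 0.0671) or 3 (-0.25, 0.135) and without IgG replicate 2 (-0.25, 0.117) or 3 (-0.37, 0.0616), so in 2 of these 4 fits the fall was no smaller. It also lost it after median centring (limma adjusted p = 0.402) or scaling to Actb (0.116). Relb lost its call without anti–VEGF-B replicate 1 (-0.32, limma adjusted p = 0.0949) or 3 (-0.29, 0.128) and without IgG replicate 1 (-0.32, 0.0791) or 2 (-0.28, 0.106). Relb also did not pass under any other scaling (0.135 to 0.322). Relative to the median gene the fall was -0.19 for Nfkb2 and -0.18 for Relb, and 25.4% and 25.5% of genes had lower log2 fold changes.

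The subunits of canonical dimers fell short of the threshold. Rela (chromosome 19, 5637483 to 5648130), the main transactivating subunit, was at 44.4, 53.9 and 42.1 FPKM under IgG and at 40.0, 40.5 and 35.2 under anti–VEGF-B (log2 fold change -0.27, limma adjusted p = 0.0794). Without IgG replicate 2, the highest of its group, the log2 fold change of Rela was -0.16 (limma adjusted p = 0.230), and with the replicate number as a block Rela passed (0.0387). Nfkb1 (chromosome 3, 135584655 to 135691547), the usual partner of Rela, was at 57.7, 59.9 and 60.2 FPKM under IgG and at 48.8, 57.3 and 49.4 under anti–VEGF-B (-0.19, adjusted p = 0.0997). Without anti–VEGF-B replicate 2, the highest of its group, the log2 fold change of Nfkb1 was -0.27 (limma adjusted p = 0.0440, against 0.0440 to 0.777 over the alternatives). Rel (chromosome 11, 23736847 to 23770970), which encodes c-Rel, the lymphoid subunit needed for T cell cytokine genes, was at 26.5, 26.0 and 28.2 FPKM under IgG and at 22.2, 25.1 and 23.9 under anti–VEGF-B (-0.18, adjusted p = 0.116). These 3 changes lay within 0.12 of the median gene. Their unadjusted p values from limma were 0.0291, 0.0404 and 0.0498.

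The proportions of the subunits overlapped between the groups. Nfkb2 made up 41.0% ± 1.46 of the summed subunit FPKM under IgG and 39.2% ± 1.60 under anti–VEGF-B, Nfkb1 24.4% ± 1.47 and 25.8% ± 1.24, and Rela 19.2% ± 1.29 and 19.2% ± 0.673. Rel made up 11.1% ± 1.09 and 11.8% ± 0.927, and Relb 4.34% ± 0.351 and 4.05% ± 0.0801. The sum of the subunits was 243.4 ± 17.5 FPKM under IgG and 201.1 ± 15.7 under anti–VEGF-B, with no overlap. Over all genes, 38.5% were lower without overlap. This sum was not scaled for the lower median FPKM of the anti–VEGF-B libraries. After median centring the log2 fold changes of single subunits ran from -0.125 to 0.048.

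Ratios between the transcripts within a library were compared by exact two-sided permutation tests, 5 in all, each with p = 0.1 as the smallest possible. There were 1.79, 1.38 and 1.53 IκB FPKM per subunit FPKM in the IgG libraries and 1.81, 1.80 and 1.90 in the anti–VEGF-B libraries. The anti–VEGF-B values were all higher, though hardly so against IgG replicate 1 (difference of mean log2 ratios 0.24, exact permutation p = 0.1, 0.5 after Benjamini-Hochberg adjustment over the 5 ratios). Without IgG replicate 2, which had the lowest ratio, the difference was 0.15. The ratio of Nfkbia to Rela was 7.11, 5.11 and 6.58 under IgG and 6.95, 7.06 and 7.24 under anti–VEGF-B (difference 0.19, exact permutation p = 0.3), and the difference was 0.050 without IgG replicate 2. For Rel to Rela, Nfkb1 to Rela and Nfkb2 to Relb the differences were 0.090, 0.078 and 0.031 on the log2 scale, with overlapping groups (exact permutation p = 0.6, 0.7 and 0.8). Leaving out IgG replicate 2 turned the first and second to -0.039 and -0.020, and leaving out anti–VEGF-B replicate 1 or IgG replicate 1 turned the third to -0.013 or -0.048.

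The genes around NF-κB were described through 5 lists written from general knowledge, with 9 genes in more than 1 list. Earlier results of these data were known when the lists were written, so the shares called are descriptive. Of 25 tested genes around signaling from the T cell receptor to the IκB kinase, 2 were lower and 1 higher (12% called, against 28.7% of all genes). The list median was -0.15, like that of all genes. The list also holds regulators of this signaling, genes of TNF receptor signaling and genes that act on IκB after the kinase. Map4k1, a kinase that restrains T cell receptor signaling, fell from 6.23 ± 1.34 to 3.39 ± 0.233 FPKM (log2 fold change -0.70, limma adjusted p = 0.00936). Chuk, which encodes the IκB kinase subunit that drives the non-canonical pathway, fell from 6.85 ± 0.663 to 4.45 ± 0.0613 (-0.52, adjusted p = 0.00889). Tab2, an adaptor of the kinase TAK1, rose from 35.7 ± 1.09 to 49.5 ± 4.58 (0.46, adjusted p = 0.00860). All 3 kept their call in every alternative run except that without moderation. The signaling transcripts Bcl10 and Malt1, named here with their values known, had log2 fold changes of 0.022 and -0.27 (limma adjusted p = 0.834 and 0.0600).

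Of 19 tested genes for brakes on NF-κB, 6 were lower and 1 higher (36.8% called, against 28.7% of all genes), and the median was -0.11. The gene that rose was Otulin, a deubiquitinase for linear ubiquitin chains, from 20.4 ± 0.955 to 29.1 ± 2.54 FPKM (log2 fold change 0.49, limma adjusted p = 0.00762). The lowest adjusted p among the falls belonged to Otud7b, a deubiquitinase of the non-canonical pathway (-0.54, adjusted p = 0.0115), Nlrc5 (-0.72, 0.0136) and Zfand5, an A20-type zinc finger gene (-0.40, 0.0146). Nlrc5 is also the transactivator of MHC class I genes. Otulin, Otud7b and Nlrc5 kept their call in every alternative except that without moderation. Without anti–VEGF-B replicate 3, 4 genes of the list were called, against 7. Calls over all genes went from 2099 lower and 429 higher to 702 and 163 in that fit. Zfand5 lost its call there and after quantile normalization (adjusted p up to 0.146 from limma over the alternatives). Tnfaip3, which encodes A20 and is itself an NF-κB target, was at 41.9 ± 7.24 FPKM under IgG and 53.9 ± 8.98 under anti–VEGF-B (0.36, limma adjusted p = 0.101), and is named here with its value known.

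Of 21 non-canonical pathway genes 16 were tested, of which 5 were lower and 1 higher (37.5% called, against 28.7% of all genes, median -0.19). Lymphotoxin transcripts moved in opposite directions, with Ltb at 406 ± 24.4 FPKM under IgG and 535 ± 26.7 under anti–VEGF-B (0.40, limma adjusted p = 0.0103) and Lta at 205 ± 30.3 and 145 ± 8.94 (-0.49, adjusted p = 0.0133). Tnfsf4, the ligand of OX40, had 8.78 ± 0.774 and 6.22 ± 0.848 FPKM (-0.44, adjusted p = 0.0211). Map3k14, which encodes NIK, the kinase that starts processing of the Nfkb2 product, had 6.49 ± 1.54 and 4.22 ± 0.514 (-0.51, adjusted p = 0.0347). Tnfrsf9 had 243 ± 25.4 and 195 ± 17.4 FPKM (-0.31, limma adjusted p = 0.0412), and Otub1 10.5 ± 1.28 and 8.30 ± 0.142 (-0.30, 0.0467). The falls on this list depended on the scaling. After quantile normalization 2 genes were lower and 2 higher, and after median centring 0 were lower and 4 higher by limma (2 lower and 6 higher at an unadjusted p under 0.05). Single libraries also mattered. Leaving out anti–VEGF-B replicate 3 took the count of calls by limma from 6 to 0 (6 lower and 1 higher at an unadjusted p under 0.05). Leaving out anti–VEGF-B replicate 2 took it to 2, leaving out IgG replicate 1 took it to 4, and leaving out any one of the remaining 3 took it to 3. Calls over all genes fell as well, from 2099 lower and 429 higher to 702 and 163 without anti–VEGF-B replicate 3. Without each other library in turn they were 1073 to 2074 lower and 257 to 395 higher. Map3k14 kept its call in 8 of 17 alternatives, Tnfrsf9 in 9 and Otub1 in 4.

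Of 19 tested genes whose products bind or modify NF-κB, 6 were lower and 0 higher by limma (6 and 1 at an unadjusted p under 0.05, median -0.13). The share called was 31.6%, near the 28.7% of all genes, and 3 were called after quantile normalization. The genes that fell included Sirt1, a deacetylase that acts on RelA (8.40 ± 0.644 to 5.19 ± 0.801 FPKM, -0.61, limma adjusted p = 0.00903), the phosphatase gene Ppm1d (-0.52, 0.0133) and the lysine methyltransferase gene Setd7 (-0.56, 0.0136). After median centring 3 genes of this list were lower and 4 higher, and without anti–VEGF-B replicate 1 or 3 the calls went from 6 to 3 or 2. Over all genes, 1389 were lower and 312 higher without anti–VEGF-B replicate 1. Without replicate 3 these counts were 702 and 163, against 2099 and 429 in the main fit. Bcl3, another nuclear IκB family gene, which is not among the 10 and is named with its value known, was at 31.9 ± 3.33 FPKM under IgG and 27.4 ± 4.45 under anti–VEGF-B (-0.22, limma adjusted p = 0.200).

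**Figure D4:**
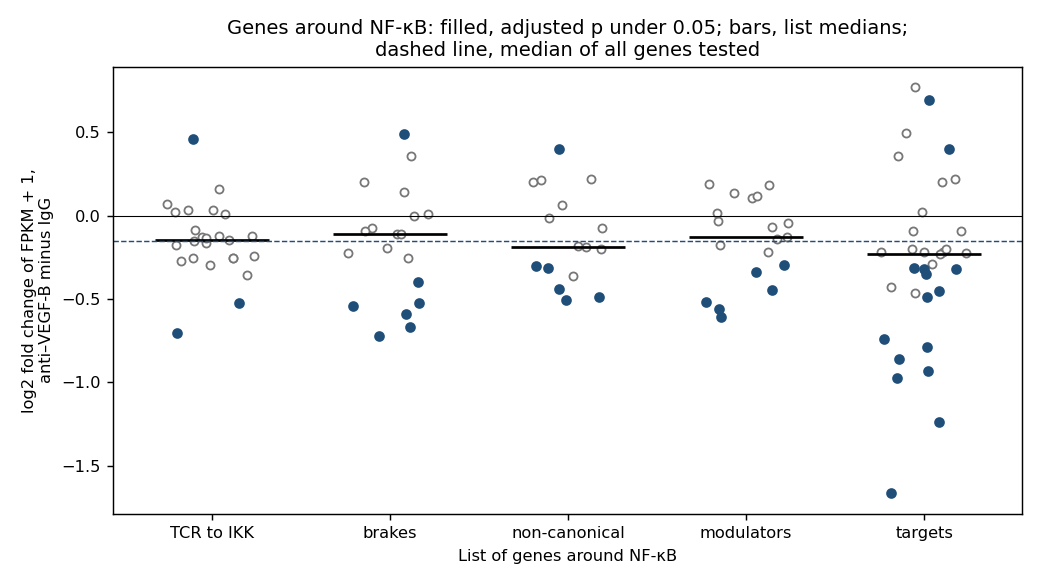
Log2 fold change of FPKM + 1 (anti–VEGF-B minus IgG) of the tested genes in 5 lists around NF-κB, filled where the adjusted p was under 0.05. Bars mark the list medians (-0.23 to -0.11) and the dashed line the median of all genes tested (-0.15).

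Among 40 known NF-κB target genes outside the 10, 33 were tested, with 13 lower and 2 higher (45.5% called, against 28.7% of all genes) and a median of -0.23. Icam1, an adhesion molecule gene, fell furthest after Irf4, from 16.7, 20.5 and 14.9 FPKM under IgG to 7.56, 7.11 and 5.60 under anti–VEGF-B (log2 fold change -1.24, limma adjusted p = 0.00469). Cd69, an early activation antigen gene, was at 11.3, 11.9 and 10.6 FPKM under IgG and at 6.53, 6.39 and 6.14 under anti–VEGF-B. In both genes each anti–VEGF-B library was well under each IgG library. Tnf was at 26.4, 32.7 and 26.3 FPKM under IgG and at 16.8, 16.2 and 14.8 under anti–VEGF-B, and Irf4 at 67.5, 134 and 86.6 and at 32.0, 31.5 and 22.6. These 4 calls were lost only without moderation among the alternatives run. The 2 targets that rose were Ltb and Il2, the latter at 0.801, 0.583 and 0.292 FPKM under IgG and 1.33, 1.77 and 1.42 under anti–VEGF-B. Il2 reached the 1 FPKM filter only through its anti–VEGF-B values, and it could be tested in 13 of the 17 alternatives. The 2 higher and the 45.5% called include Il2. Leaving Il2 aside, Ltb was the only target called higher, against 13 lower, and 18 of the 33 did not pass the test. The split was 11 lower and 3 higher after quantile normalization and 7 lower and 6 higher after median centring. Without anti–VEGF-B replicate 3 the calls on this list went from 15 to 7. Those over all genes went from 2099 lower and 429 higher to 702 and 163 in that fit. Since many of these genes answer to other factors as well, their changes are not a measure of NF-κB activity.

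Vegfb, the gene of the neutralized ligand, was at 7.44, 7.81 and 6.55 FPKM under IgG and at 6.48, 5.92 and 6.21 under anti–VEGF-B (log2 fold change -0.20, limma adjusted p = 0.147). An antibody acts on the protein, so this value does not check the treatment. In bulk RNA, fewer cells with a transcript and less of it per cell cannot be told apart, which holds for every change given here.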

How the data were processed

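Per the labels and the study's methods, stranded RNA-Seq reads were aligned to GRCm38 with hisat2 and quantified with StringTie and Ballgown. The authors deposited 1 FPKM value per gene and library, without stating a normalization between libraries or a filter behind the genes listed. The values are not whole numbers although the table is named as raw data, so they were used as FPKM and no count model was run.

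With R 4.3.3 and limma 3.58.1 (empirical Bayes with trend, no covariate), log2(FPKM + 1) was fitted for 8816 genes whose mean over the 6 libraries reached 1 FPKM, and genes were called at a Benjamini-Hochberg adjusted p under 0.05. The 10 transcripts, the 5 lists, the marker lists and the tests were chosen with earlier results of these data known. Named were the 10 transcripts, Vegfb, the 3 genes most like the transcript with the lowest p, and, from each list, up to 4 called genes with the lowest adjusted p and those in counts of 5 or fewer, unless stated. Some genes of the lists are counted but not reported here by name. Same-numbered replicates were not treated as pairs.

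Alternatives changed the scaling, pseudocount, filter, moderation, replicate block and libraries included. No sequences are shown, as none were used here.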

Additional observations from a re-analysis of the deposited data

How the results depend on the processing

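The main limit is the moderation of the variance across genes. Without it limma called 0 of the 10 transcripts lower and 0 higher (5 of the 10 had an unadjusted p under 0.05), 0 genes of each list (5 to 16 at an unadjusted p under 0.05) and 6 genes lower and 6 higher over all genes (3208 at an unadjusted p under 0.05). The values were those of the moderated fit (-1.06 for Nfkbid, -0.925 for Nfkbie, 0.479 for Nfkbiz, -0.337 for Nfkb2 and -0.336 for Relb). The scaling also changed calls. Median centring left 2 of the 10 lower, with Nfkb2 at -0.106 and Relb at -0.125. It turned the sign of Nfkb1 (0.037), Rel (0.048), Nfkbia (0.149) and Nfkbib (0.11), with the median gene at 0.038. Scaling to Actb also left 2 lower, with Nfkb2 at -0.27 and Relb at -0.274. Relb was at -0.175 after quantile normalization and -0.185 after cyclic loess. Over all genes 913, 918, 1309 and 938 were lower after quantile normalization, median centring, scaling to Actb and cyclic loess, against 2099, and 989 under a filter at 5 FPKM, which left 4927 genes to test. The genes that were higher numbered 880, 1421 and 852 after quantile normalization, median centring and cyclic loess, against 429. The list of proteins that bind or modify NF-κB had 3 calls after quantile normalization, after cyclic loess and with a mean of at least 5 FPKM, and the list from receptor to kinase had 5 after median centring.

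Leaving out 1 library at a time gave 2 to 5 of the 10 lower and 0 or 1 higher, and 702 to 2074 genes lower and 163 to 395 higher over all genes. In these fits the log2 fold changes ran from -0.265 to -0.152 for Nfkb1, from -0.396 to -0.251 for Nfkb2, from -0.411 to -0.28 for Relb and from 0.389 to 0.583 for Nfkbiz, and from -0.338 to -0.164 for Rela. The lowest of these counts over all genes came without anti–VEGF-B replicate 3. The calls per list ran from 4 to 7 for brakes, 0 to 4 for the non-canonical pathway, 2 to 6 for binding or modifying proteins and 7 to 16 for targets. The replicate block gave 5 of the 10 lower, as Rela (-0.268) then passed (adjusted p = 0.0387 from limma), and changed no other call among the 10. The deviations of same-numbered libraries correlated at -0.0296, 0.11 and 0.0891, and those of the other pairs at -0.175 to 0.0997. The labels do not say whether same-numbered samples shared a mouse or culture. With 3 libraries per group these values cannot show it either way. With a pseudocount of 0.1 or 0.5, robust moderation or no filter the calls among the 10 were those given above. The causes of these changes were not tested.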
